A study of Mus musculus with 4 samples.

Results

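Hox genes encode homeobox transcription factors that lie in 4 clusters, Hoxa, Hoxb, Hoxc and Hoxd. Genes at the same place in different clusters share a number and form a paralogue group, from group 1 to group 13. The genes were chosen by symbol: Hoxa, Hoxb, Hoxc or Hoxd followed by a number, and measured by at least 1 array probe set that the annotation assigns to that gene alone. This gave 33 genes of 18193 genes analysed, which are 9 Hoxa, 9 Hoxb, 7 Hoxc and 8 Hoxd genes. RefSeq lists 39 mouse Hox genes. The other 6 were not analysed here.

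The RNA came from bone marrow cells of adult NOD/SCID mice (strain NOD.CB17-Prkdc scid/J), immunodeficient animals that are often used as hosts for human blood cells. Cells were sorted as negative for mature lineage antigens, CD45 (blood cells), CD31 (endothelium) and Sca1 and positive for the integrin CD51, a gate the submitters call osteoblast. There were 2 arrays of such cells from the trabecular bone area, the spongy bone, and 2 from the long bone area. Strain, sort and tissue were common to both areas. The title of the series speaks of human blood stem cells and of the marrow around them, and the comparison asks how the sorted cells of the 2 areas differ. The labels call the arrays of an area biological replicates without saying which mice gave them, so that a p-value here measures the spread between samples and no more, which may be technical. The design text names a human array, whereas the probe sets carry mouse names and annotation.

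Along the body axis of the embryo, low-numbered Hox genes are used towards the head and high-numbered ones towards the tail. In the limb, groups 9 to 13 of the Hoxa and Hoxd clusters pattern the segments from shoulder or hip to digits, and mesenchymal cells of adult bone keep part of the pattern of the place they come from. Hox genes are also used in blood, where Hoxa9 and its cofactor Meis1 are known from stem and progenitor cells and from leukaemia.

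Each deposited value is a log2 expression value from which the probe set's 4-array median has been taken. A value of 1 is therefore a level 2-fold above that median, the levels themselves are not shown, and genes cannot be ranked by abundance. A difference is the trabecular mean minus the long bone mean on this log2 scale, so a negative difference means a lower value in the trabecular area. In bulk RNA of this kind, fewer cells of a type and less RNA per cell cannot be told apart. Precision was limited by the number of arrays, 2 an area.

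Promoters are shown first for 4 of the genes whose values are given most space below, Hoxa9 and Hoxb1, with values at least 2-fold lower in the trabecular area, and Hoxd11 and Hoxd12, with values higher in the trabecular area on both arrays. The sequences are those of RefSeq on the mouse build GRCm38.p6, 250 bases long, ending 1 base before the annotated start and printed in the direction of the gene. Of the 33 Hox genes, 19 matched an entry, with 21 windows between them. Each window was searched on both strands for TGATNNAT, the letters bound by Hox and Pbx proteins together, and for TGACAG, the letters bound by Meis proteins. Matches of the 2 motifs could share part of their letters, and none did in the printed windows. Capitals mark a match.
Hoxa9, chr6:52227371-52227620, minus strand: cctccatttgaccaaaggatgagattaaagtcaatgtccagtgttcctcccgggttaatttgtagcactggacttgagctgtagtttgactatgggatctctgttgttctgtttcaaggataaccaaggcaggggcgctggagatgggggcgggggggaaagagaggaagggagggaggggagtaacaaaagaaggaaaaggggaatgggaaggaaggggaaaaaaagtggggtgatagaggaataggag
Hoxb1, chr11:96365508-96365757, plus strand: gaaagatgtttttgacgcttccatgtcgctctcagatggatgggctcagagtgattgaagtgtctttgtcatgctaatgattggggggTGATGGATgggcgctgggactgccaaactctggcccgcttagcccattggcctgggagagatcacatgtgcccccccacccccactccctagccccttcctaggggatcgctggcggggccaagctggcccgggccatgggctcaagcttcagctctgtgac
Hoxd12, chr2:74674763-74675012, plus strand: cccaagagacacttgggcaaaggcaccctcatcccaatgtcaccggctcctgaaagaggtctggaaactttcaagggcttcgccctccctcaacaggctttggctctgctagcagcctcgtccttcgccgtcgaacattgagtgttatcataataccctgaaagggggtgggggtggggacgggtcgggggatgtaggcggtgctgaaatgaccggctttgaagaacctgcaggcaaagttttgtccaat
Hoxd11, chr2:74679308-74679557, plus strand: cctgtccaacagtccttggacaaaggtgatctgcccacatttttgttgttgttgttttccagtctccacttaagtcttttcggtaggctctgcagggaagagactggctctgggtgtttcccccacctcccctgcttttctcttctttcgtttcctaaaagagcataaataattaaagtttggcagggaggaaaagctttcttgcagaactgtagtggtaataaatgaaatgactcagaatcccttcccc
Hoxd11, second annotated start, chr2:74682073-74682322, plus strand: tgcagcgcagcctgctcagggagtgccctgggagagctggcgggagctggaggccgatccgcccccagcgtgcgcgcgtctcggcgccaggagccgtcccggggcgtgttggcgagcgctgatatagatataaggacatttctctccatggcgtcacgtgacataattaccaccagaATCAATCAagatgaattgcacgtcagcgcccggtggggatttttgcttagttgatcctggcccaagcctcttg

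The Hoxb1 window held the Hox-Pbx letters once, as TGATGGAT, and the second Hoxd11 window held them once on the other strand, as ATCAATCA. The Hoxa9, Hoxd12 and first Hoxd11 windows held neither motif. The Hox-Pbx letters were found in 3 of the 21 Hox windows (14.3%) and in 2524 of 32851 promoters of all genes (7.68%). The Meis letters were found in 2 Hox windows (9.52%), those of Hoxa2 and Hoxa3, and in 15.9% of all promoters. Hox windows had a median of 13 CpG pairs against 6 in all promoters, and the 5 printed windows ranged from 2 to 20. A match is a description of the letters, and its absence says only that these letters are not in the window.

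No Hox gene passed the test between the areas at an adjusted p under 0.05 (limma, Benjamini-Hochberg over all 18193 genes), and neither did any other gene, the called share being 0%. At an unadjusted p under 0.05 there were 2 Hox genes, Hoxc8 and Hoxc10, which is 6.06% of the Hox genes where 15.5% of all genes passed. Both were lower in the trabecular area, as were 4.62% of all genes, and no Hox gene but 10.8% of all genes were higher at that threshold. Of the 33 differences, 20 were negative and 13 positive, with a median of -0.04, while the median of all genes was 0.03. Values of the areas did not overlap for 12 Hox genes that were lower in the trabecular area (36.4%, against 21.4% of all genes) and for 5 that were higher (15.2%, against 29.9% of all genes). In either direction that makes 17 of 33, where 51.4% of all genes did not overlap. Differences were small for most Hox genes: 23 of 33 lay within 0.25 of 0, as 58.8% of all genes did. At least 2-fold apart were 3, Hoxa9, Hoxb1 and Hoxc8, where 2.89% of all genes were.

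Long bone array 2 stood apart and weighed on the Hox genes. Over all probe sets, 2493 lay at least 2-fold from their median on that array and 383 to 848 on the other arrays. Hox values had a standard deviation over genes of 0.42 on it and of 0.12 to 0.18 on the others. Of the 33 Hox genes, 18 were highest on that array (54.5%, against 35.2% of all genes). On this array 8 Hox genes lay more than 0.3 above their median, namely Hoxa5, Hoxa9, Hoxa11, Hoxb1, Hoxb13, Hoxc6, Hoxc8 and Hoxd8. The trabecular arrays had 1 such gene each and long bone array 1 had 0. The share of all genes above 0.3 was not counted. Over all probe sets the standard deviation was 0.48 on long bone array 2 and 0.27 to 0.31 on the others. Without long bone array 2 the median Hox difference was 0.03 and 17 of the 33 differences were positive, and without long bone array 1 it was -0.11 with 23 negative. With fewer arrays, overlap is rarer for every gene. Without long bone array 2 the areas did not overlap for 14 higher Hox genes (44.6% of all genes were so) and 14 lower ones (29.5% of all genes). Without long bone array 1 there were 8 higher (42.3% of all genes) and 19 lower (40.4% of all genes). Without trabecular array 1 there were 8 higher (40.1%) and 15 lower (35.8%), and without trabecular array 2 there were 9 higher (41.4%) and 13 lower (28.6%), the percentages again those of all genes. The results below are therefore given with and without the array where it matters.

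**Figure D1:**
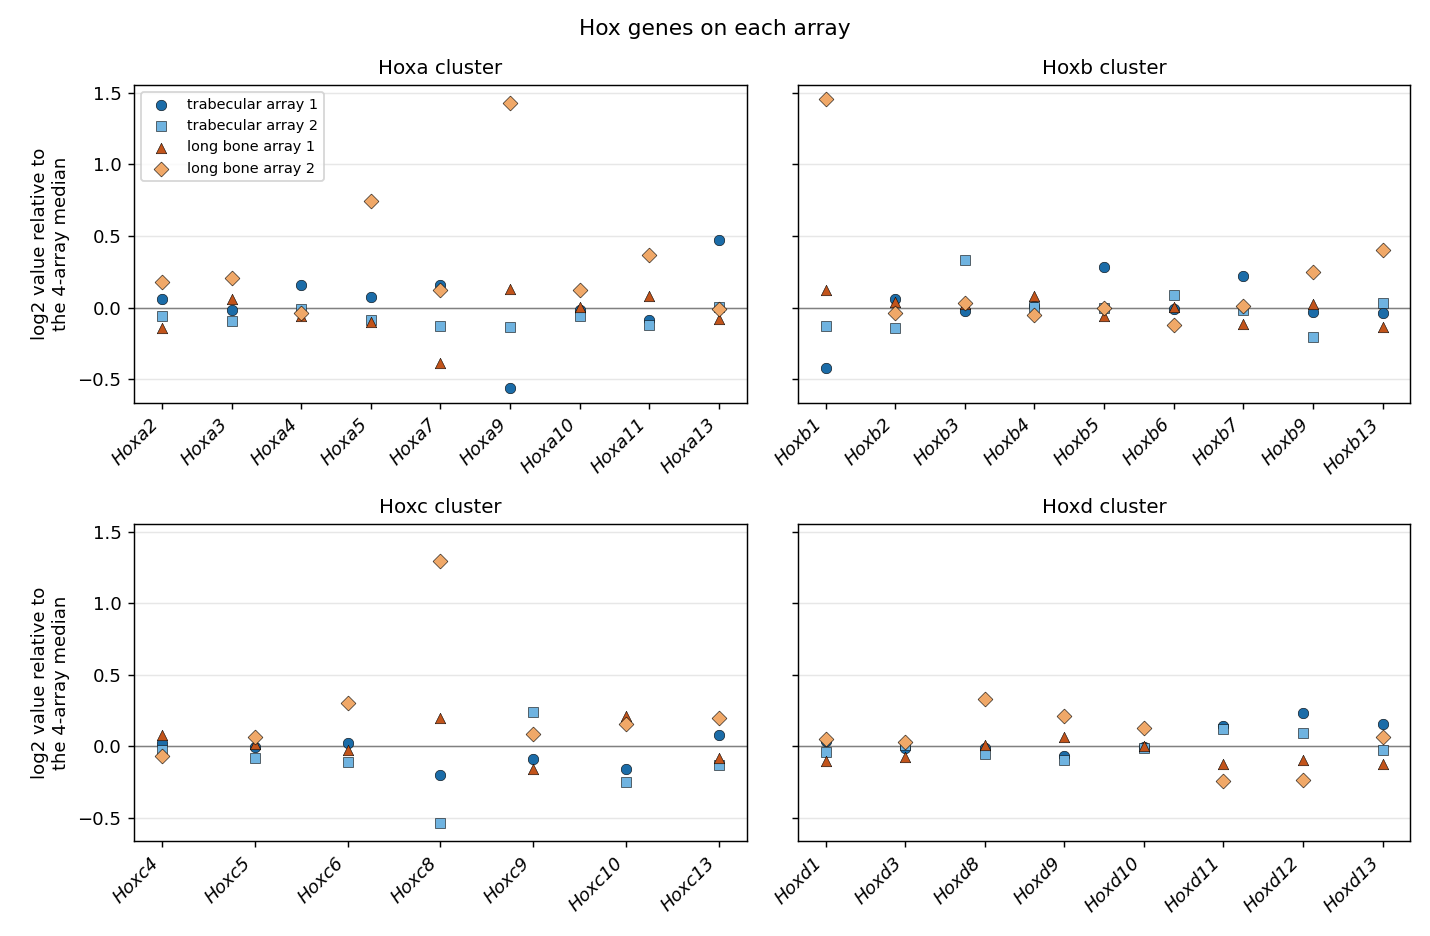
Value of each of the 33 Hox genes on each of the 4 arrays, as log2 relative to the 4-array median, in 1 panel for each cluster with genes in order of their number. Each point is 1 array. The points of Hoxa9, Hoxb1 and Hoxc8 on long bone array 2, at 1.43, 1.45 and 1.30, lie above all other points.

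In the Hoxa cluster the high-numbered genes did not go one way. Hoxa9, which acts in the upper limb segments and in blood progenitors, was at -0.56 on trabecular array 1, -0.13 on trabecular array 2, 0.13 on the first long bone array and 1.43 on the second. Below, values come in this order. Both trabecular values were below both long bone values, and the largest step was between the long bone arrays. The difference was -1.13 (SE 0.47, 95% interval -2.38 to 0.12), 2.19-fold lower in the trabecular area, with a limma adjusted p of 0.349. It became -0.48 when long bone array 2 was left out and -1.78 when long bone array 1 was. Its probe sets, both in the bright band described below, went the same way by unequal amounts. One, at -0.94, -0.19, 0.19 and 2.74, differed by -2.03 (SE 0.93). The other, at -0.19, -0.07, 0.07 and 0.12, differed by -0.23 (SE 0.13), and without the first probe set this is the value of Hoxa9.

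Hoxa11, needed for the forearm and lower leg, was at -0.08 and -0.12 in the trabecular area and at 0.08 and 0.37 in the long bone area. It differed by -0.32 (SE 0.15, 95% interval -0.72 to 0.07, adjusted p 0.376), and by -0.18 without long bone array 2. Hoxa10, which acts with group 9 in the upper limb and in bone-forming cells, was at -0.02 and -0.06 against 0.00 and 0.12. The Hoxa10 difference was -0.10, and it was -0.04 without long bone array 2. A probe set of Hoxa10 differed by -0.22 without overlap, and the other by 0.02 with overlapping areas. Hoxa13, a gene of hand and foot, was at 0.47 and 0.01 against -0.08 and -0.01. Its trabecular values were the higher ones, but the 0.28 difference (SE 0.20, adjusted p 0.518) was 0.05 without trabecular array 1.

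Among the lower-numbered Hoxa genes, Hoxa3, which patterns neck and throat structures, was at -0.01 and -0.10 in the trabecular area and at 0.06 and 0.21 in the long bone area, a difference of -0.19 (SE 0.13) that was -0.11 without long bone array 2. Of its 4 probe sets, 3 differed by -0.28 to -0.30 and the other by 0.12. Hoxa4 was at 0.16 and -0.01 against -0.06 and -0.03, a difference of 0.12 that was 0.04 without trabecular array 1. Hoxa5, which shapes the neck and upper chest and the lung, was at 0.08 and -0.08 against -0.10 and 0.74. Its areas overlapped, and its difference of -0.32 (95% interval -1.15 to 0.50) became 0.10 without long bone array 2, or -0.75 with that array as the single one of its area. Hoxa7 was at 0.16 and -0.13 against -0.39 and 0.13, a difference of 0.15 that was 0.40 without long bone array 2, or -0.11 when array 1 of that area was left out instead. The areas also overlapped for Hoxa2, a gene of hindbrain and face, at 0.06 and -0.06 against -0.14 and 0.18.

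The Hoxb cluster, which has few roles in the limb and is active in blood progenitors, showed small differences with 1 exception. Hoxb1, a gene of the early hindbrain, was at -0.42 and -0.13 on the trabecular arrays and at 0.13 and 1.45 on the long bone arrays. Its areas did not overlap, and as for Hoxa9 the largest step was between the long bone arrays. It differed by -1.06 (SE 0.47, 95% interval -2.31 to 0.18, adjusted p 0.362), 2.09-fold lower in the trabecular area, and by -0.40 without long bone array 2. Hoxb9, which takes part in forming the rib cage, was at -0.03 and -0.20 against 0.03 and 0.25, a difference of -0.25 (SE 0.15, adjusted p 0.455) that was -0.14 without long bone array 2. Hoxb5 was at 0.28 and 0.00 against -0.06 and -0.00, a difference of 0.17 that was 0.03 without trabecular array 1.

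The areas overlapped for the remaining 6 Hoxb genes. Hoxb7, at 0.22 and -0.02 against -0.11 and 0.02, differed by 0.15. Hoxb3 and Hoxb6 differed by 0.13 and 0.10, Hoxb2 by -0.04, and Hoxb4, known from blood stem cells, by -0.01. Hoxb13, a gene of the tail end of the body, differed by -0.13 and was at 0.40 on long bone array 2. The mean of Hoxb3 hides opposite probe sets: one differed by -0.33 and was highest on long bone array 2, at 0.39, and the other differed by 0.58 and was highest on trabecular array 2, at 0.80.

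In the Hoxc cluster 6 of 7 genes had negative differences, among them both Hox genes with an unadjusted p under 0.05. Hoxc8, which patterns the lower chest and acts in cartilage and bone, was at -0.20 and -0.54 in the trabecular area and at 0.20 and 1.30 in the long bone area. The area means were -0.37 ± 0.24 (SD, n = 2) and 0.75 ± 0.77 (SD, n = 2), and the areas did not overlap. It differed by -1.12 (SE 0.40, 95% interval -2.18 to -0.06), 2.17-fold lower in the trabecular area, with an unadjusted limma p of 0.0427 and an adjusted p of 0.312. Leaving out long bone array 2 gave -0.57, and leaving out the other long bone array gave -1.66.

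Hoxc10, which acts in the lower back and hindlimb, was at -0.16 and -0.25 in the trabecular area and at 0.21 and 0.16 in the long bone area. These values separated the areas with little spread within either, at means of -0.20 ± 0.07 (SD, n = 2) and 0.18 ± 0.04 (SD, n = 2). It differed by -0.39 (SE 0.12, 95% interval -0.71 to -0.06), 1.31-fold lower in the trabecular area, with an unadjusted limma p of 0.0289 and an adjusted p of 0.287. Leaving out any of the 4 arrays gave -0.34 to -0.43. Hoxc5 was at -0.00 and -0.08 against 0.01 and 0.07, a difference of -0.08 that was -0.05 without trabecular array 2. A probe set of Hoxc5 differed by -0.20 without overlap. Its other probe sets differed by -0.09 and 0.04 with overlapping areas. The areas overlapped for Hoxc4, Hoxc6, Hoxc9 and Hoxc13, with differences of -0.01, -0.18, 0.11 and -0.09. That of Hoxc6 was -0.015 without long bone array 2.

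The Hoxd cluster, whose groups 9 to 13 pattern the limb with those of Hoxa, had differences in both directions. No gene of the cluster had an unadjusted limma p under 0.05. Hoxd8, Hoxd9 and Hoxd10 were lower in the trabecular area without overlap. Hoxd8 was at -0.01 and -0.05 against 0.01 and 0.33, a difference of -0.20 that was -0.04 without long bone array 2. Hoxd9, a gene of the upper limb segment, was at -0.06 and -0.09 against 0.06 and 0.21, a difference of -0.22 (SE 0.13) that was -0.14 without long bone array 2. Hoxd10 was at -0.01 on both trabecular arrays against 0.01 and 0.13, a difference of -0.07 that was -0.014 without long bone array 2.

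Hoxd11 and Hoxd12, which pattern the forearm and the wrist and digits, were higher in the trabecular area. Hoxd11 was at 0.14 and 0.12 on the trabecular arrays and at -0.12 and -0.24 on the long bone arrays. It differed by 0.31 (SE 0.12, 95% interval -0.01 to 0.64), 1.24-fold, with an unadjusted limma p of 0.056 and an adjusted p of 0.333. Hoxd12 was at 0.23 and 0.09 against -0.09 and -0.23, and differed by 0.33 (SE 0.13, 95% interval -0.03 to 0.68, adjusted p 0.343). With each array left out in turn the difference was 0.26 to 0.37 for Hoxd11 and 0.26 to 0.40 for Hoxd12, and long bone array 2 held the lowest value of both.

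Hoxd13, the last gene of the cluster and a gene of the digits, gave no single answer. One of its probe sets was at 0.21 and 0.15 against -0.15 and -0.18 and differed by 0.34, with no overlap and an unadjusted limma p of 0.0472 among all probe sets (adjusted p 0.303). The other was at 0.09 and -0.19 against -0.09 and 0.31 and differed by -0.16. Their mean differed by 0.09 with overlapping areas. Hoxd1 and Hoxd3 differed by 0.03 and 0.02.

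**Figure D2:**
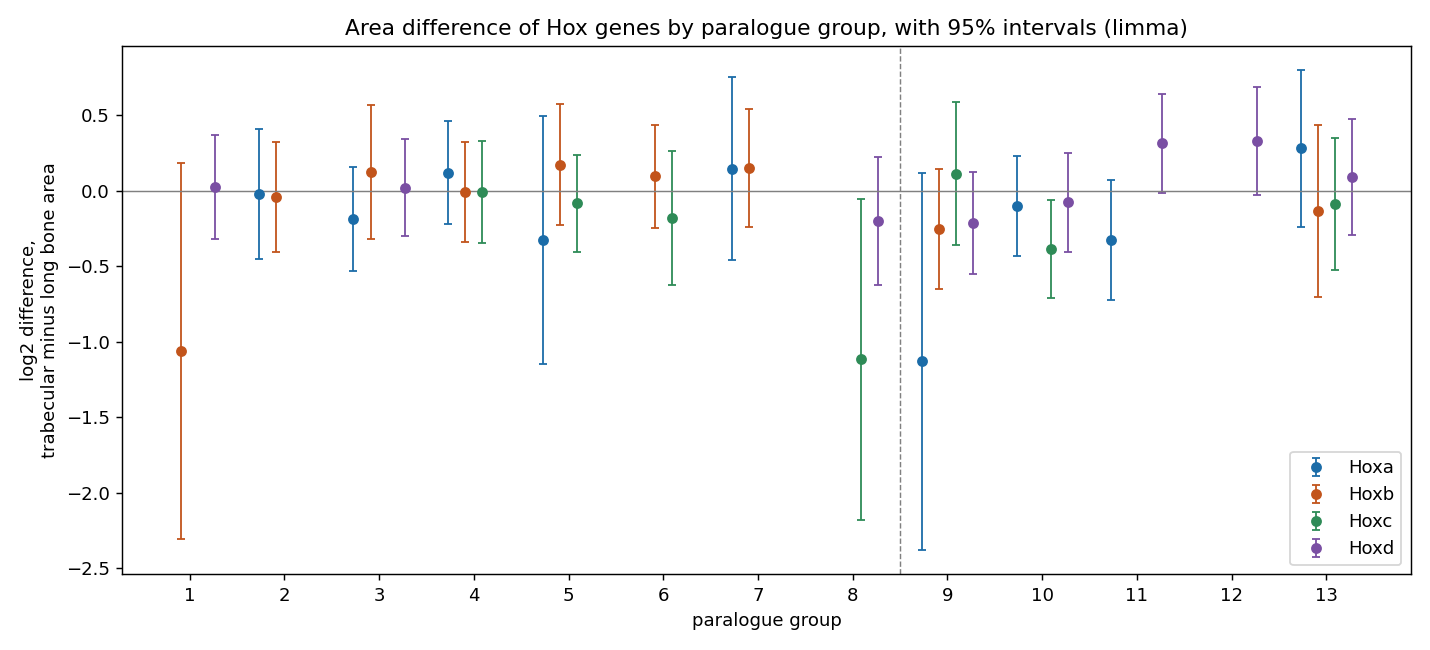
Log2 difference of each Hox gene, trabecular minus long bone area, against its paralogue group, with 95% intervals of the limma fit and 1 colour for each cluster. Hoxc8 and Hoxc10 are the genes whose intervals lie wholly below 0, and Hoxd11 and Hoxd12, at 0.31 and 0.33, have intervals that reach just below it.

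By paralogue group, the 14 genes of groups 9 to 13 had a median difference of -0.09, with 9 negative, and 7 of them lay within 0.25 of 0. The 19 genes of groups 1 to 8 had a median of -0.01, with 11 negative, and 16 lay within 0.25 of 0. At least 2-fold apart were 1 gene of groups 9 to 13 and 2 of groups 1 to 8. The areas did not overlap for 10 genes of groups 9 to 13, 7 lower (50%) and 3 higher (21.4%), and for 7 of groups 1 to 8, 5 lower (26.3%) and 2 higher (10.5%). Of all genes 21.4% were lower and 29.9% higher without overlap. The range over the 4 arrays had a median of 0.43 in groups 9 to 13 and 0.32 in groups 1 to 8, against 0.43 for all genes. The medians of the 2 sets of groups were not tested against each other. Without long bone array 2 they were 0.02 for groups 9 to 13 and 0.03 for groups 1 to 8, and without long bone array 1 they were -0.19 and -0.05.

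By cluster, the median difference was -0.10 for Hoxa, -0.01 for Hoxb, -0.09 for Hoxc and 0.02 for Hoxd. In that order the medians were 0.10, 0.03, -0.06 and 0.09 without long bone array 2. Without long bone array 1 they were -0.18, 0.06, -0.23 and -0.04. Hoxa had 6 of 9 negative differences, Hoxb 5 of 9, Hoxc 6 of 7 and Hoxd 3 of 8. Within groups 9 to 13 the medians were -0.21 for the 4 Hoxa genes and 0.09 for the 5 Hoxd genes. That Hoxd median is the value of Hoxd13, whose probe sets went opposite ways. With each array left out in turn, the Hoxa median was -0.31 to -0.11 and the Hoxd median -0.0029 to 0.19. Paralogues of 1 group differed in direction: Hoxa11 was lower in the trabecular area by 0.32 on the log2 scale and Hoxd11 was higher by 0.31, both without overlap. In group 10, Hoxa10, Hoxc10 and Hoxd10 all had lower trabecular values without overlap, though the areas overlapped for a probe set of Hoxa10. Hoxc10 differed by -0.42 without long bone array 2, and Hoxa10 and Hoxd10 then differed by -0.04 and -0.014. In group 9, Hoxa9, Hoxb9 and Hoxd9 were lower in the trabecular area without overlap, and the areas overlapped for Hoxc9.

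Leaving out long bone array 1 was the setting under which Hox genes passed the adjusted test. Then Hoxa9, Hoxb1 and Hoxc8 had differences of -1.78, -1.73 and -1.66 with limma adjusted p of 0.0374, 0.0365 and 0.0371, while 8.81% of all genes passed. In that fit long bone array 2 stood alone for its area and was assumed to vary like the trabecular arrays. Over the other alternatives and this one, their adjusted p ranged from 0.0374 to 0.806 for Hoxa9, from 0.0365 to 0.834 for Hoxb1 and from 0.0371 to 0.849 for Hoxc8. Without long bone array 2, no Hox gene passed the adjusted test, where 0.0055% of all genes did.

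**Figure D3:**
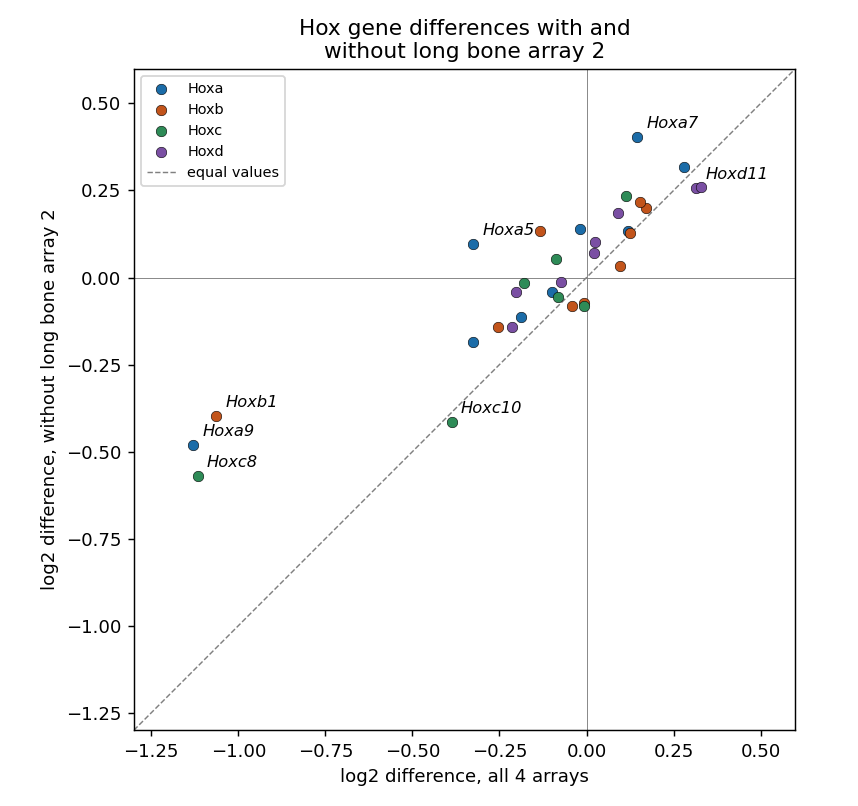
Log2 difference of each Hox gene without long bone array 2, on the vertical axis, against the difference over all 4 arrays, on the horizontal axis, with a dashed line where they are equal. Hoxa9, Hoxb1 and Hoxc8 lie above the line, at -0.48, -0.40 and -0.57 without the array, and Hoxa5 goes from -0.32 to 0.10.

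How bright a probe set was before centring can be read in part from the step between its stored numbers, since numbers stored with 32 bits have steps that grow with their size. Of the 48 probe sets of the Hox genes, 9 had the step that goes with log2 levels from 8 upwards, called the bright band here; the reading is approximate. These belonged to Hoxa5, Hoxa9, Hoxa11, Hoxb9, Hoxc6, Hoxd11 and Hoxd13. A further 34 had the step of levels of 4 to 8, 1 (Hoxd10) that of 2 to 4, and 4 could not be read. Of the Hox probe sets that could be read 20.5% were bright, against 33.2% of all probe sets. Hoxb1, Hoxc8, Hoxc10 and Hoxd12 had no bright probe set. A band below the bright one needs only 1 array with a level under 8, so it does not place all 4 arrays there. The RMA summary compresses folds among dim signals, and whether it did so for these genes was not tested.

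**Figure D4:**
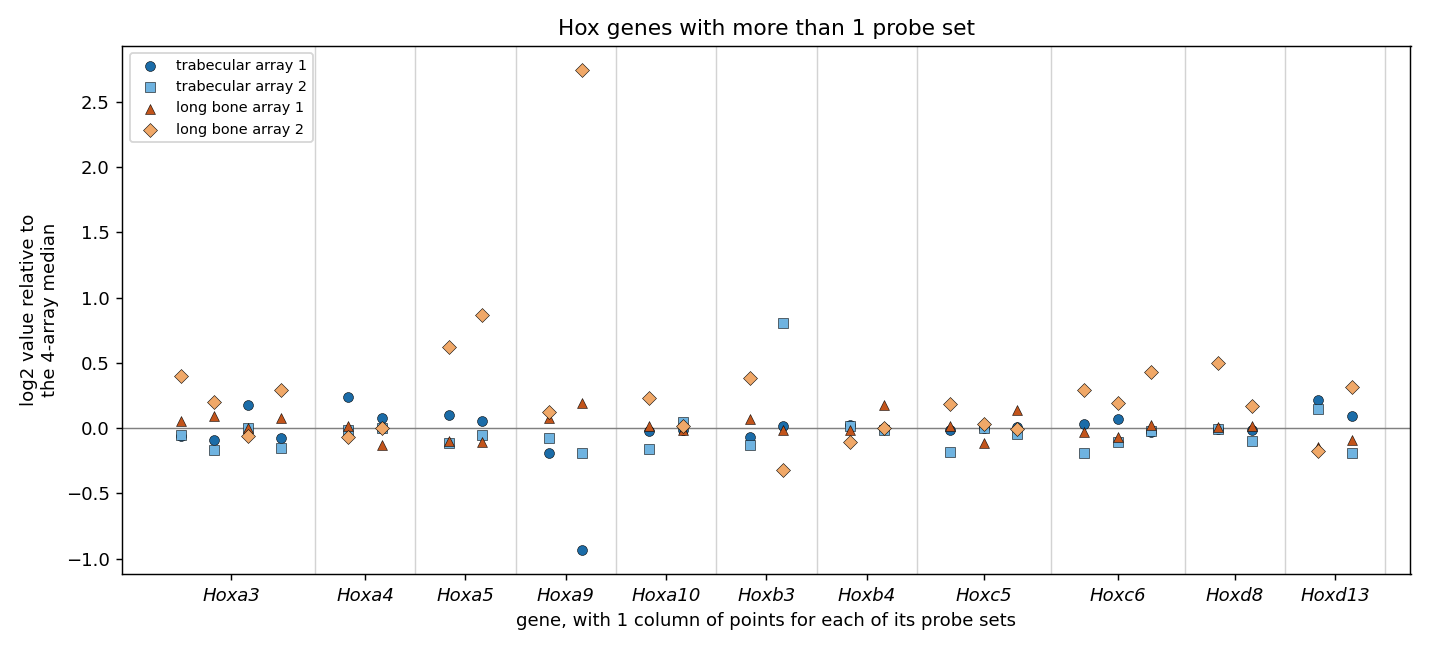
Value of each probe set on each array, as log2 relative to the 4-array median, for the 11 Hox genes with more than 1 probe set. Each column of points is 1 probe set. One probe set of Hoxa9 reaches 2.74 on long bone array 2 while the other is at 0.12, and the probe sets of Hoxb3 and of Hoxd13 run in opposite directions.

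Antisense RNAs within the clusters have probe sets of their own and are not counted among the 33. Hoxd3os1 was at -0.13 and -0.29 in the trabecular area and at 0.13 and 0.23 in the long bone area, a difference of -0.39 (SE 0.13) with an unadjusted limma p of 0.0365 and an adjusted p of 0.301. Hoxb5os was at -0.03 on both trabecular arrays against 0.03 and 1.01, a difference of -0.56 that was -0.07 without long bone array 2. The areas overlapped for Hoxa11os, which differed by 0.19, was at 0.41 on trabecular array 1 and differed by -0.06 without it. A further 3 probe sets carry names of 2 Hox genes, Hoxb8 with Hoxb7 and Hoxd4 with Hoxd3, and differed by 0.03, 0.08 and 0.01 with overlapping areas.

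Hox proteins bind DNA with partners of the TALE homeobox family, the Pbx, Meis and Pknox proteins. Of 9 partner genes 8 were analysed, with 5 negative differences, a median of -0.17, and no overlap between areas for 3 lower (37.5%, against 21.4% of all genes) and 1 higher (12.5%, against 29.9%). Meis1, the partner of Hoxa9 in blood progenitors, was at -0.30 and -0.14 in the trabecular area and at 0.08 and 0.49 in the long bone area. It differed by -0.51 (SE 0.19, unadjusted limma p 0.0479, adjusted p 0.321), and by -0.30 without long bone array 2. Meis2, which marks the upper limb, was at -0.07 and -0.26 against 0.18 and 0.18, and differed by -0.34 with and without long bone array 2. Meis3 differed by -0.29, and by -0.17 without that array. Pknox2, the 1 that was higher, differed by 0.23, and by 0.10 without trabecular array 1.

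Regulators of the clusters, among them the Polycomb and Trithorax complexes that keep Hox genes off or on and the retinoic acid pathway that turns them on, had 21 positive and 12 negative differences among 33 genes analysed of 34 listed. Their median was 0.14, and 0.08 without long bone array 2. The areas did not overlap for 14 that were higher in the trabecular area (42.4%, against 29.9% of all genes) and for 4 that were lower (12.1%, against 21.4%). Of these Wdr5, a core subunit of the Trithorax-type methyltransferases, differed by 0.54 (adjusted p 0.256) and Rara, a retinoic acid receptor, by 0.53 (adjusted p 0.273). These were the 2 of the 33 with an unadjusted limma p under 0.05, where 15.5% of all genes had one. The Polycomb genes Jarid2 and Suz12 differed by 0.50 and 0.41, and by 0.28 and 0.12 without long bone array 2. The 4 lower ones were Cyp26b1 and Cyp26a1, enzymes that break down retinoic acid, at -0.33 and -0.13, Cbx7, a Polycomb subunit, at -0.17, and Gdf11, a signal that sets the position of the hindlimb, at -0.16. In that order they were at -0.49, -0.05, -0.11 and -0.07 without long bone array 2, and Cyp26b1 was at -0.16 without long bone array 1.

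Other homeobox and T-box genes of limb and skeletal position had 30 negative and 7 positive differences among 37 genes analysed of 40 listed, with a median of -0.17. On long bone array 2 29 of the 37 were highest, and without it the median was -0.00. The areas did not overlap for 14 that were lower in the trabecular area (37.8%, against 21.4% of all genes) and for 1 that was higher (2.7%, against 29.9%). Irx3, which acts in the early limb, was at -0.17 and -1.39 in the trabecular area and at 0.17 and 1.31 in the long bone area, a difference of -1.52 (adjusted p 0.321) that was -0.95 without long bone array 2. Shox2, needed for the upper limb bones, differed by -0.68 and by -0.12 without that array, and Prrx1, a gene of limb mesenchyme, by -0.57 and by -0.19. Six2 differed by -0.39, and by -0.14 without long bone array 2. Barx1, found in joints, was the 1 that was higher, by 0.41 (adjusted p 0.280).

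**Figure D5:**
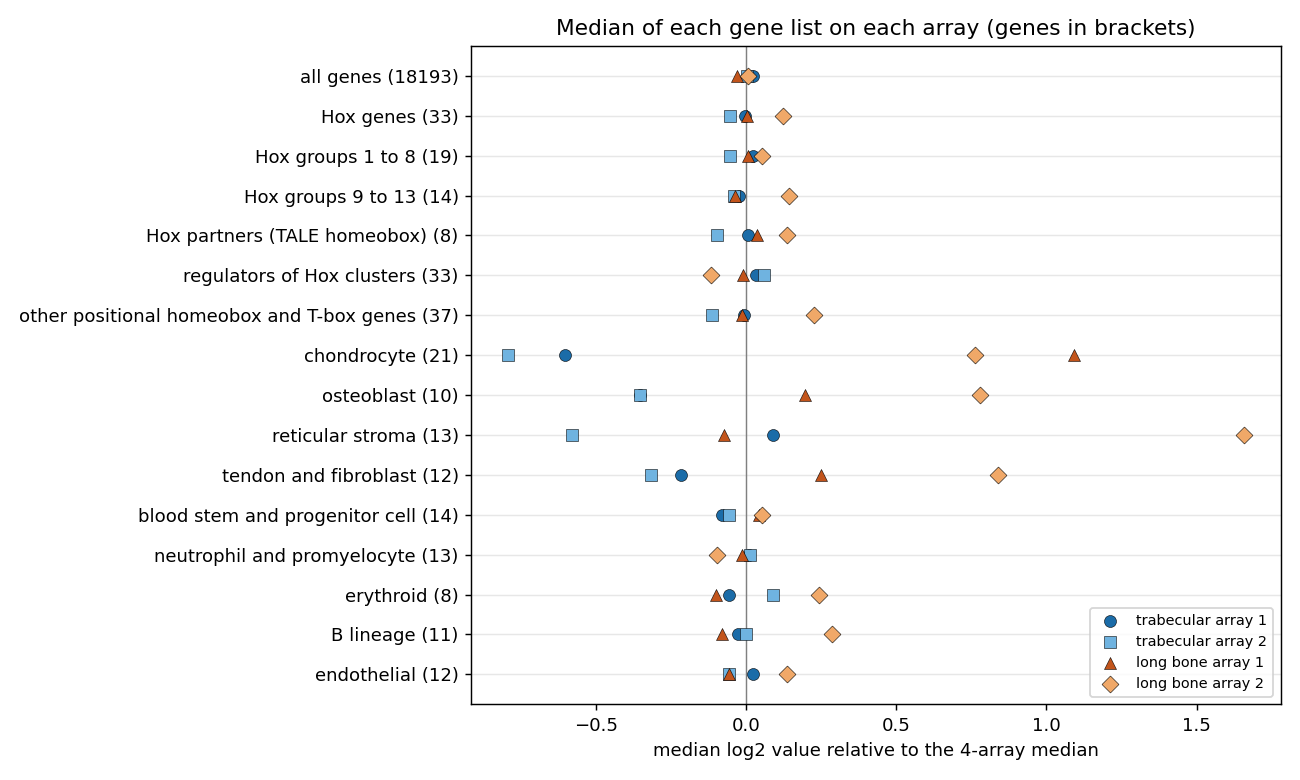
Median value of each gene list on each array, as log2 relative to the 4-array median, for the Hox genes, the 3 lists of Hox-related genes and the markers of cell types. The Hox median moves from -0.05 to 0.12 over the arrays, while those of chondrocyte and reticular stroma genes reach 1.09 and 1.66 on a long bone array.

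Markers of skeletal and stromal cell types differed between the areas, by their medians, by more than the Hox genes did. Chondrocyte genes had a median difference of -1.79, with medians of -0.60 and -0.79 on the trabecular arrays and 1.09 and 0.76 on the long bone arrays, and all 21 were negative. Osteoblast genes, 10 analysed of 15, had a median of -1.25, with array medians of -0.35, -0.35, 0.20 and 0.78. Reticular stroma genes had a median of -1.03, with array medians of 0.09, -0.58, -0.07 and 1.66, and all 13 were highest on long bone array 2. So were 18 of the 33 Hox genes, Hoxa9, Hoxb1 and Hoxc8 among them, and 35.2% of all genes. Without that array the reticular stroma median was -0.17. Tendon and fibroblast genes had a median of -0.71.

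Blood stem and progenitor genes, which mark the blood cells in which Hoxa9 is best known, had a median of -0.09 with array medians of -0.08, -0.06, 0.04 and 0.05. Medians were 0.06 for neutrophil, -0.12 for erythroid, -0.10 for B lineage and -0.11 for endothelial genes. These medians moved with 1 array left out. They were, without long bone array 2, 0.13 for erythroid, 0.04 for B lineage and 0.05 for endothelial genes, and without trabecular array 1 they were 0.11 for erythroid and 0.39 for neutrophil genes. The B-lineage median was 0.29 on long bone array 2 and -0.08 to 0.00 on the others. The part of these cell types in the Hox differences was not tested. Because the values are centred, no marker can be shown to be absent from either area. Of the osteoblast genes, 4 of 10 had a bright probe set, Alpl and Col1a1 among them. The counts were 5 of 21 for chondrocyte, 4 of 13 for reticular stroma and 3 of 12 for tendon and fibroblast genes. They were 11 of 13 for neutrophil, 9 of 14 for blood stem and progenitor and 4 of 8 for erythroid genes. For B lineage and endothelial genes they were 4 of 11 and 2 of 12. The gene of CD51 (Itgav) also had a bright probe set among its 5. So did Ptprc, the gene of CD45 by whose absence the cells were sorted, among its 2. The remaining probe sets of both genes had the step of levels of 4 to 8.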

How the data were processed

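RNA of the 4 samples was hybridised to Affymetrix arrays. The deposited values are log2, summarised with RMA per the submitters' processing notes, which give no version. They are also centred on the 4-array median of each probe set. From them, 64 control probe sets were left out, and 34945 of 45037 had 1 gene in the array annotation (932 several, 9160 none). By gene ID 34741 matched RefSeq genes of GRCm38.p6, with 0 symbols changed. A gene is the mean of its own probe sets. The area comparison used lmFit and eBayes of limma 3.58.1 under R 4.3.3 (two-sided, no trend, no block, 2 residual and 2.50 prior degrees of freedom) over 18193 genes, with Benjamini-Hochberg adjustment at 0.05, and the script was tested on simulated data. With 2 arrays against 2, an exact permutation test cannot go below 0.333, so none is given. No pair of arrays was alike beyond 65 to 107 identical probe sets. Array values are given for Hox genes with no overlap, for the 6 largest differences in each direction and for ranges of at least 1, and up to 4 genes per direction for the other lists. The gene lists, the members and the rules were chosen with earlier results of these data known. Values named outside these rules were chosen after they were seen. Alternatives were each array left out, replicate blocks, 2 scalings, 2 variance models, 2 choices of probe set and bright probe sets only. Another, not planned beforehand, left out the Hoxa9 probe set with the larger difference.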

Additional observations from a re-analysis of the deposited data

How the results depend on the processing

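Over 13 alternatives for each Hox gene (14 for the 7 with a bright probe set), 412 differences kept direction and side of the threshold, 21 changed sign and 3 newly passed it. The cause of these changes was not tested. Part of the 412 was fixed in advance. The replicate blocks and the variance models change only the p and leave every difference as it is. Leaving out a Hoxa9 probe set changes the difference of no other Hox gene. Leaving out each array in turn, the number of Hox genes past the adjusted test was 0 to 3, that at an unadjusted p under 0.05 was 0 to 6, those without overlap were 8 to 14 higher and 13 to 19 lower, and the median Hox difference was -0.11 to 0.032. Of all genes 5.58% to 30% were at an unadjusted p with an array left out. At an unadjusted p there were 4 Hox genes after quantile normalization (18.3% of all genes) and 0 with the probe set of largest spread (16.5% of all genes). Bright probe sets alone left 7 Hox genes, 0 of them at an unadjusted p (16.9% of all genes), 2 higher (42.3% of all genes) and 3 lower (14% of all genes) without overlap, with a median of -0.25 where that of all genes was 0.20. A trend in the prior variance called 40 genes and ordinary t statistics 1, none of them a Hox gene.

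Same-numbered arrays deviated with a correlation of -0.11 over genes, and the labels do not say that a number is shared. With a replicate block 3 Hox genes had an unadjusted p under 0.05, where 13.5% of all genes had, and 0 passed the adjusted test. A crossed block, chosen after seeing the data, gave 2 and 0, where 14.9% of all genes had an unadjusted p under 0.05.

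Differences that changed sign with an array left out ranged from -0.18 to 0.14 for Hoxa2, -0.75 to 0.10 for Hoxa5, -0.11 to 0.40 for Hoxa7, -0.14 to 0.058 for Hoxb2, -0.056 to 0.31 for Hoxb3, -0.074 to 0.061 for Hoxb4, -0.40 to 0.13 for Hoxb13, -0.082 to 0.066 for Hoxc4, -0.049 to 0.28 for Hoxc9, -0.23 to 0.054 for Hoxc13, -0.052 to 0.10 for Hoxd1, -0.029 to 0.071 for Hoxd3 and -0.0029 to 0.19 for Hoxd13. Hoxa2 was at 0.022 after quantile normalization, Hoxa10 at 0.016 with plain-suffix probe sets and Hoxd13 at -0.16 with the probe set of largest spread. Only 9 of 48 Hox probe sets were in the bright band, so many of these differences may be among dim signals.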
